A study of Homo sapiens with 6 samples.

Results

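The RAB genes encode small GTPases that mark the membranes of the secretory and endocytic pathways. They were examined in the human colorectal adenocarcinoma cell line DLD1, whose cells carried a CDKL1 shRNA or a control shRNA. A gene was taken as a member when its annotated symbol was RAB followed by a number and at most 1 letter, which left out RAB effectors and RAB-like genes. Each was read from 1 probe set, the one with the highest mean over the 6 arrays among probe sets annotated to that gene alone. The rule gave 57 of the 18132 genes measured, covered by 161 probe sets. A further 5 such genes (RAB1B, RAB4B, RAB6C, RAB24 and RAB43) were represented only on probe sets annotated to several genes and have no value here.

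A RAB protein cycles between a GTP-bound active state on a membrane and a GDP-bound inactive state. Exchange factors switch it on, GTPase-activating proteins switch it off, and active RABs recruit effectors such as tethers, motors and sorting proteins. A lipid anchor added after synthesis holds RABs in the membrane, and GDP dissociation inhibitors extract and recycle the inactive form. In polarised intestinal epithelium RABs direct cargo between the endoplasmic reticulum (ER), Golgi, endosomes and the apical and basolateral surfaces.

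The cells were infected with lentivirus expressing either hairpin, and both groups therefore carried a lentiviral shRNA construct. Each group held 3 samples of total RNA, 1 Affymetrix array each, which the design text calls independent; separate infections are not stated, so each p-value reflects only how far these samples vary, which may be technical. The time after infection, any selection of infected cells and the hairpin sequences were not given with the samples. All values below are log2 expression values as deposited, and a change is the mean of CDKL1 shRNA arrays minus that of control arrays. A gene is said to have risen or fallen when its limma p, adjusted by Benjamini-Hochberg over all 18132 genes, was under 0.05.

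The targeted gene gave no check of the knockdown. CDKL1 read 4.51, 4.42 and 4.17 in control arrays and 4.25, 4.20 and 4.08 in CDKL1 shRNA arrays, a change of -0.19 (95% interval -0.41 to 0.03, adjusted p = 0.219, limma). These levels overlapped and lay under the mean of the background control probe set with 16 G or C bases, 4.92, so the groups are named as labelled. All 9 measured markers of colorectal epithelium lay above that control, EPCAM at 13.53 and CDX2 at 10.69 among them. CDX1 (6.19), VIL1 (5.57) and LGALS4 (5.37) were far dimmer. The control was also passed by 3 of 6 fibroblast, 3 of 4 leukocyte, 2 of 3 endothelial and 2 of 4 kidney or neural markers, up to VWF at 6.70. Of the epithelial markers 1 fell in limma, VIL1, which encodes villin, from 5.85 to 5.29 (-0.57, adjusted p = 0.019). An unadjusted p under 0.05 was found for 4 of the 9, against 29.8% of all genes. KRT8 (-0.15, adjusted p = 0.0502) and KRT18 (-0.13, adjusted p = 0.0651) were among them. Markers of fibroblasts (6 measured), leukocytes (4), endothelium (3) and kidney or neural lines (4) gave 0 calls with limma and 0 at an unadjusted p under 0.05, and PTPRC, the pan-leukocyte antigen, lay at 3.55. Summed over the leukocyte markers the log2 level was 19.5 to 19.7 in control arrays and 18.9 to 19.3 in CDKL1 shRNA arrays, and over the epithelial markers 95.97 to 96.16 and 94.79 to 95.40, without overlap. The dim marker VIL1, at -0.57, had the largest change within the epithelial sum. The fibroblast sums (28.6 to 29.3 and 28.4 to 29.5), the endothelial sums (17.3 to 17.5 and 17.3 to 17.4) and the kidney or neural sums (19.0 to 19.3 and 18.8 to 19.1) overlapped. Signs of RNA quality moved with the groups. The control probe set at the 3' end of the actin gene ACTB exceeded that at its 5' end by 1.40 ± 0.0133 on control arrays and by 1.60 ± 0.115 on CDKL1 shRNA arrays (log2, SD, n = 3; exact two-sided permutation p = 0.1, the smallest possible here), with CDKL1 shRNA replicate 2 the highest at 1.73. For GAPDH this gap was 0.203 ± 0.018 and 0.275 ± 0.0262 (exact permutation p = 0.1). A fit with this actin gap as a covariate was run, and its values are given with the called RAB genes. The gap did not overlap between groups (1.39 to 1.41 in control arrays, 1.52 to 1.73 in CDKL1 shRNA arrays). With 3 arrays against 3 this fit therefore cannot tell group and RNA quality apart. The part of RNA quality in the changes below was not tested otherwise.

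Of the 57 RAB genes 10 rose, 3 fell and 44 did not pass. The changes were small, and RAB18 alone exceeded 1.5-fold, a size that 1.20% of all genes passed. The 10 that rose were RAB18, RAB27B, RAB5A, RAB21, RAB33B, RAB35, RAB30, RAB6A, RAB1A and RAB11B. RAB8B, RAB26 and RAB20 fell. Called members made up 22.8% of the family against 16.8% of all genes, with 8.97% of all genes higher and 7.79% lower. Above the background control with 16 G or C bases the shares were 25.5% of 51 RAB genes and 19.9% of 14900 genes, so the family's share of calls lay near that of genes in general. The median change was 0.03 over the 57 genes and -0.01 over all genes, and single members ran from -0.50 to 0.62. At an unadjusted p under 0.05 there were 21 RAB genes, against 29.8% of all genes. For 18 RAB genes every CDKL1 shRNA array exceeded every control array and for 9 the reverse held, where all genes gave 18.1% above and 17.6% below (35.7% in all). In bulk RNA fewer cells with a transcript and less transcript per cell cannot be told apart.

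**Figure D1:**
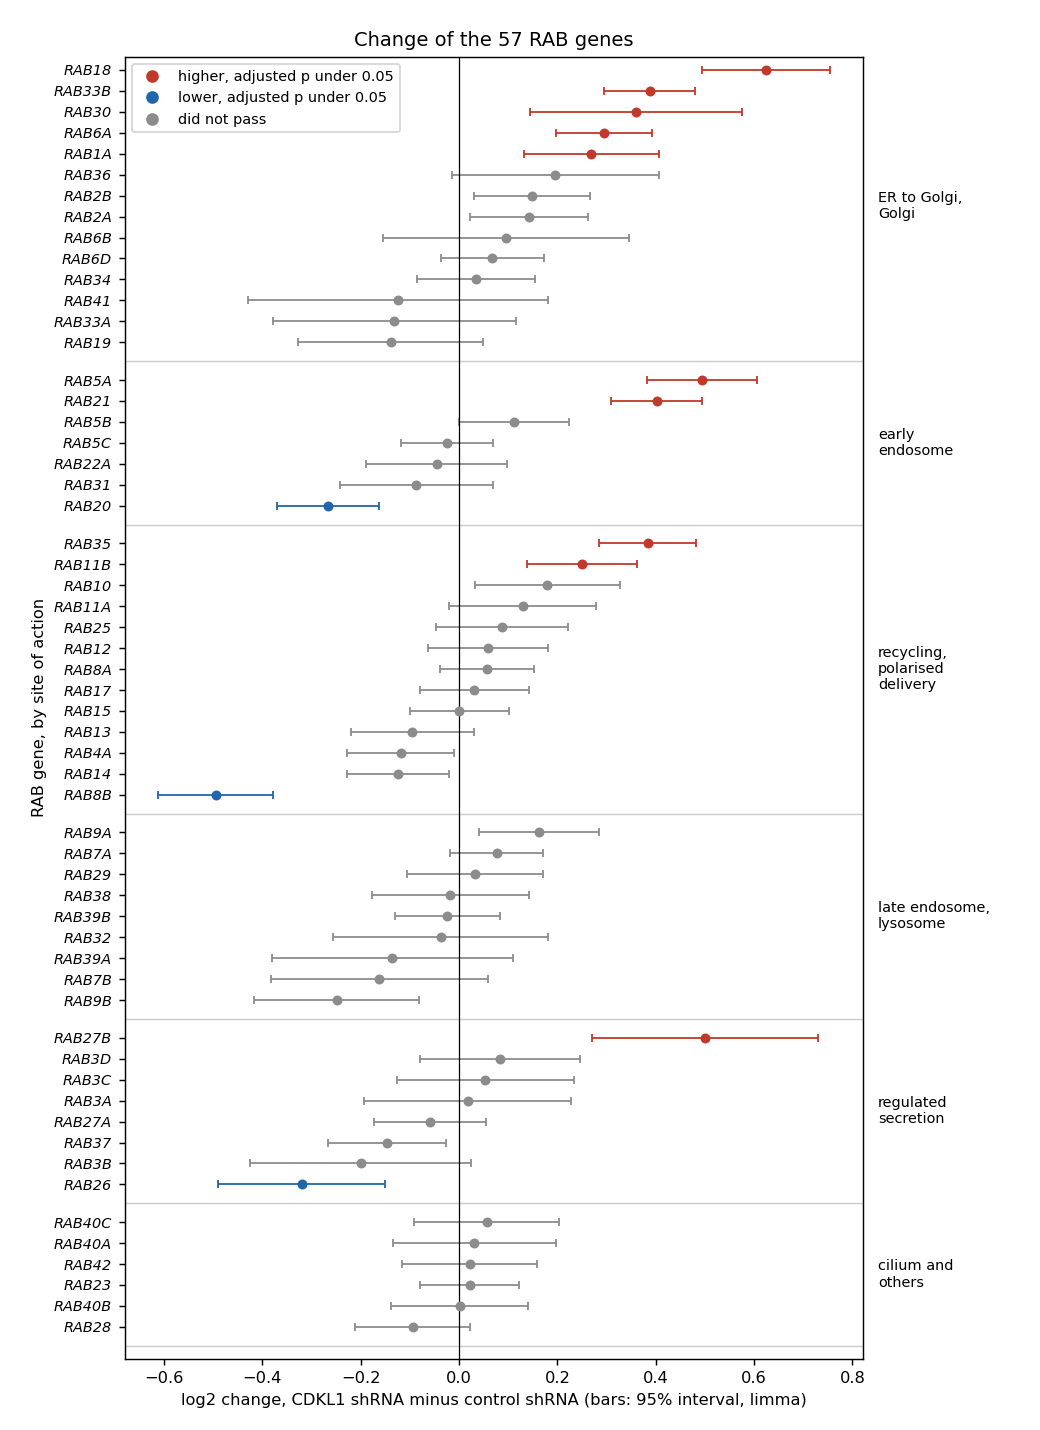
Change of each of the 57 RAB genes on the log2 scale (x axis, CDKL1 shRNA minus control shRNA), grouped by the main site of action of the protein; points are limma estimates from 3 arrays per group and bars their 95% intervals. Red genes rose and blue genes fell at an adjusted p of 0.05: 5 of the 14 ER and Golgi genes are red and none is blue, while the late endosome and cilium groups hold grey points only.

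RAB genes of the ER-to-Golgi route and the Golgi held 5 of the 10 rises and no fall. Of 14 measured members 5 rose and 9 did not pass, 35.7% called against 16.8% of all genes, with a median change of 0.14. The largest was that of RAB18, whose product acts at the ER and on lipid droplets. RAB18 read 10.36, 10.41 and 10.44 in control arrays and 10.94, 11.03 and 11.11 in CDKL1 shRNA arrays. The groups did not overlap, and the 1.54-fold rise (0.62, 95% interval 0.49 to 0.75, adjusted p = 0.000745, limma) compares with SDs of 0.0399 and 0.0836. RAB33B, a Golgi GTPase that also binds the autophagy protein ATG16L1, read 7.51, 7.51 and 7.50 in control arrays and 7.88, 7.89 and 7.91 in CDKL1 shRNA arrays. Its arrays were tightly grouped on both sides, and the rise of 0.39 (SE 0.0393, adjusted p = 0.00111, limma) was of 1.31-fold.

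RAB6A, which serves transport out of the Golgi and back to the ER, read 9.98, 9.96 and 9.96 in control arrays and 10.23, 10.26 and 10.29 in CDKL1 shRNA arrays. It rose by 0.29 (SE 0.0415, adjusted p = 0.00401, limma), with no overlap. RAB6A has near-identical relatives in RAB6C and RAB6D, so its _x_at probe set may include their signal. RAB1A, which drives tethering of ER-derived vesicles at the Golgi, read 12.46, 12.65 and 12.62 in control arrays and 12.84, 12.86 and 12.84 in CDKL1 shRNA arrays. Its CDKL1 shRNA arrays lay within 0.02 of each other and above every control array, of which replicate 1 was the lowest. The rise was 0.27 (SE 0.0582, adjusted p = 0.021, limma). The Golgi GTPase RAB30 read 7.11, 7.32 and 7.17 in control arrays and 7.74, 7.49 and 7.44 in CDKL1 shRNA arrays, a rise of 0.36 (SE 0.0919, adjusted p = 0.0375, limma) in which CDKL1 shRNA replicate 1 stood highest.

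These last calls rested on few arrays. Without any 1 of the CDKL1 shRNA arrays, 3 of the 14 genes rose, since RAB1A and RAB30 were both lost. Without replicate 1, 2 and 3 in turn, RAB1A was 0.27 (adjusted p = 0.0623), 0.26 (adjusted p = 0.061) and 0.27 (adjusted p = 0.0674) in limma. RAB30 was 0.27 (adjusted p = 0.0725), 0.40 (adjusted p = 0.0597) and 0.42 (adjusted p = 0.0524). It was lost as well without control shRNA replicate 1, at 0.32 (adjusted p = 0.106), or replicate 3, at 0.34 (adjusted p = 0.104). With the actin gap as a covariate none of the 5 passed in limma. An unadjusted p under 0.05 was then found for 18 of the 57 RAB genes and for 3501 of the 18132 genes. The estimates were 0.60 (adjusted p = 0.0616) for RAB18, 0.39 (adjusted p = 0.0765) for RAB33B, 0.49 (adjusted p = 0.192) for RAB30, 0.29 (adjusted p = 0.149) for RAB6A and 0.25 (adjusted p = 0.284) for RAB1A, with larger SEs than in the plain fit.

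Among the 9 Golgi-route members that did not pass, RAB36, RAB2B and RAB2A had the largest positive values, 0.20, 0.15 and 0.14 (adjusted p = 0.196, 0.0933 and 0.108, limma). RAB2A and RAB2B act between the ER and the Golgi and on Golgi structure. The lowest values were those of RAB19 (-0.14), RAB33A (-0.13) and RAB41 (-0.12), of which RAB33A and RAB41 lay under the background control.

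Early endosome genes moved in both directions. Of 7 members RAB5A and RAB21 rose, RAB20 fell and 4 did not pass (42.9% called against 16.8% of all genes), with a median of -0.02. RAB5A, the GTPase that organises fusion and sorting at early endosomes, read 10.85, 10.94 and 10.92 in control arrays and 11.37, 11.37 and 11.44 in CDKL1 shRNA arrays. Every CDKL1 shRNA array exceeded every control array, a 1.41-fold rise (0.49, SE 0.0474, adjusted p = 0.000963, limma). RAB21, a close relative that carries integrins through endosomes, read 10.19, 10.18 and 10.16 in control arrays and 10.57, 10.58 and 10.58 in CDKL1 shRNA arrays. The SDs were 0.0155 and 0.00449, far below its rise of 0.40 (SE 0.0391, adjusted p = 0.000995, limma). RAB20, which acts on phagosomes and endosomes, read 10.42, 10.49 and 10.45 in control arrays and 10.18, 10.23 and 10.16 in CDKL1 shRNA arrays. It fell 1.20-fold (-0.27, SE 0.0442, adjusted p = 0.00751, limma) without overlap.

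The remaining members of this group, RAB5B (0.11), RAB5C (-0.02), RAB22A (-0.05) and RAB31 (-0.09), did not pass by their brightest probe sets. All 3 calls were kept in each of the 6 fits with 1 array left out. With the ACTB covariate the changes were 0.52 (adjusted p = 0.0597) for RAB5A, 0.39 (adjusted p = 0.075) for RAB21 and -0.33 (adjusted p = 0.122) for RAB20 (limma).

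Among the promoter motifs searched, 1 was held by RAB5A and RAB21 and by no other RAB gene with a window. Their windows are shown because these called genes held it. Promoter windows from RefSeq (GRCh38.p14), 250 bases before to 50 after the start of a gene, were found for 45 of the 57 RAB genes and for 9 of the 13 called ones. The 8-base palindrome TCACGTGA, the core of the CLEAR element bound by TFEB and its relatives, was present in 2 of these 45, RAB5A and RAB21. Of the 8 risen genes with a window 2 held it. It was found in 0.98% of 35116 windows and in 1.18% of 27305 genes with a window. The match began 122 bases before the annotated start in RAB5A and 21 bases before it in RAB21. These windows are shown with the palindrome in capitals, RAB5A from the plus strand of chr3:19946847-19947146 and RAB21 from the plus strand of chr12:71754613-71754912.
RAB5A: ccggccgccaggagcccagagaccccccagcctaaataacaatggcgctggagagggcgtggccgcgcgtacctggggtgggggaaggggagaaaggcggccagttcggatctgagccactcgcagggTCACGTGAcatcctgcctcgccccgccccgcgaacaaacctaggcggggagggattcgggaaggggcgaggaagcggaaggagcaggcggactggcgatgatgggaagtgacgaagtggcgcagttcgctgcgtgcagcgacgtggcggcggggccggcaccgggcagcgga
RAB21: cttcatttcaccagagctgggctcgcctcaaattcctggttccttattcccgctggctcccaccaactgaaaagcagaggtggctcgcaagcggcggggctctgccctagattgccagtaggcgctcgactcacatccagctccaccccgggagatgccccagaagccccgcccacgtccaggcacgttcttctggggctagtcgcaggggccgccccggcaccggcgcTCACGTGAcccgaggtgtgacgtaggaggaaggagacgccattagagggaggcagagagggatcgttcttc

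All other RAB windows lacked this palindrome, those of the largest rise and the largest fall of the family among them. These last windows are the plus strand of chr10:27504054-27504353 for RAB18 and of chr15:63189356-63189655 for RAB8B, shown without capitals.
RAB18: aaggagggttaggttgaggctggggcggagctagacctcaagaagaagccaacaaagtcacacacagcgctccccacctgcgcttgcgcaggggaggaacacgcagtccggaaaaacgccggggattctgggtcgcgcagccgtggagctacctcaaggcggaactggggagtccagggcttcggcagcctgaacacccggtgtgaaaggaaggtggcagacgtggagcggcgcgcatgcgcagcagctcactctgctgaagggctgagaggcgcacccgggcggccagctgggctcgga
RAB8B: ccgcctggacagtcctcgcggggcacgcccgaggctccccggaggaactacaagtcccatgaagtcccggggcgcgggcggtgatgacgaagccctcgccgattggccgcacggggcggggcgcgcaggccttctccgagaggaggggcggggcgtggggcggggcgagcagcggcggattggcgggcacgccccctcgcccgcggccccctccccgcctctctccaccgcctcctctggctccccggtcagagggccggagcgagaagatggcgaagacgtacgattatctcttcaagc

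Other motifs were searched on both strands, as was the palindrome, and 8 risen genes had a window. All genes with a window are the 27305 RefSeq genes, which were not limited to the 18132 genes measured. The cAMP response element TGACGTCA was in 0 of the 8 and in 1 of the 45 (RAB25), against 2.25% of all genes with a window (1.85% of windows). The unfolded protein response element TGACGTGG (0.927% of all genes with a window) and the ER stress element ERSE (0.0916%) were in none of the 45. The shorter TGACG, which TGACGTCA and TGACGTGG both contain, was in 6 of the 8 risen genes and in 53.3% of the RAB genes, against 28.4% of all genes with a window. The 1 fallen gene with a window, RAB8B, held it too, as well as TGACNNNGC and CCAAT. The RAB windows were richer in G and C, with a median of 63% against 58.7%. TGACNNNGC, the core of the NRF2-bound element, was in 2 of the 8 and 20% of RAB genes (16.1% of all genes with a window). The NF-Y box CCAAT was in 2 of the 8 and 33.3% of RAB genes (39.7% of all genes with a window). These are descriptions of letters in a window and no test was made.

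In recycling and polarised delivery 2 of 13 genes rose, 1 fell and 10 did not pass (23.1% called against 16.8% of all genes), with a median of 0.06. RAB8B, which directs exocytic carriers to the surface and to the primary cilium, had the largest fall of the family. It read 10.55, 10.59 and 10.64 in control arrays and 10.04, 10.11 and 10.15 in CDKL1 shRNA arrays. The groups were apart, and the fall was 1.41-fold (-0.50, SE 0.0495, adjusted p = 0.00108, limma). RAB35, which returns cargo from endosomes to the plasma membrane, read 9.02, 9.02 and 9.0 in control arrays and 9.36, 9.43 and 9.40 in CDKL1 shRNA arrays, a rise of 0.38 (SE 0.0421, adjusted p = 0.00151, limma). RAB11B of the recycling endosome read 10.83, 10.74 and 10.78 in control arrays and 11.08, 11.04 and 10.98 in CDKL1 shRNA arrays. It rose by 0.25 (SE 0.048, adjusted p = 0.0136, limma), again with no overlap.

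Both rises of this group were called in 1 probe set only. The next brightest probe set of each gene was also higher without overlap but did not pass. It gave 0.17 for RAB11B (adjusted p = 0.0664) and 0.17 for RAB35 (adjusted p = 0.12) in limma over all probe sets. Averaging all probe sets of RAB8B gave -0.30 (adjusted p = 0.00524), a smaller fall. When all probe sets of a gene were averaged, RAB35 was 0.05 (adjusted p = 0.459) and RAB11B 0.01 (adjusted p = 0.893) in limma. RAB11B was also lost without control shRNA replicate 2, at 0.23 (adjusted p = 0.0538). With the ACTB covariate RAB8B was -0.52 (adjusted p = 0.068), RAB35 0.32 (adjusted p = 0.112) and RAB11B 0.25 (adjusted p = 0.221). The apical recycling GTPase genes of epithelia, RAB25 (0.09, 95% interval -0.05 to 0.22) and RAB17 (0.03, -0.08 to 0.14), did not pass, and neither did RAB10 (0.18), RAB11A (0.13), RAB8A (0.06), RAB4A (-0.12) or RAB14 (-0.12).

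No gene of the late endosome, lysosome and lysosome-related organelles passed. All 9 measured members gave 0 calls with limma, and 2 had an unadjusted p under 0.05, RAB9A (0.16, adjusted p = 0.077) and RAB9B (-0.25, adjusted p = 0.0543), which serve return of receptors from late endosomes to the Golgi. RAB9B passed with a replicate block and with the milder filter on dim genes, and RAB9A with an intensity trend. The median was -0.02. RAB7A, the GTPase of late endosomes and of fusion with lysosomes, read 10.10, 10.11 and 10.14 in control arrays and 10.20, 10.20 and 10.18 in CDKL1 shRNA arrays. Its groups did not overlap, but the change of 0.08 (95% interval -0.02 to 0.17, adjusted p = 0.258, limma) did not pass. RAB29 (0.03), RAB32 (-0.04) and RAB38 (-0.02), relatives that serve lysosome-related organelles, lay close to 0.

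In regulated secretion 1 of 8 genes rose and 1 fell (25% called against 16.8% of all genes), with a median of -0.02. RAB27B, which docks secretory granules and multivesicular bodies at the plasma membrane, read 7.86, 8.24 and 8.15 in control arrays and 8.62, 8.51 and 8.63 in CDKL1 shRNA arrays. Control replicate 1 was the lowest array, and the groups did not overlap (1.41-fold higher, 0.50, SE 0.0981, adjusted p = 0.0146, limma). RAB26, a GTPase of secretory granules, read 7.47, 7.26 and 7.42 in control arrays and 7.0, 7.17 and 7.02 in CDKL1 shRNA arrays. It fell 1.25-fold (-0.32, SE 0.072, adjusted p = 0.0238, limma), with control replicate 2 and CDKL1 shRNA replicate 2 the nearest arrays. Each of these genes had 1 probe set.

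Both calls in secretion were sensitive to single arrays. RAB27B was 0.48 (adjusted p = 0.0569) without CDKL1 shRNA replicate 1 and 0.48 (adjusted p = 0.0576) without replicate 3 in limma, and 0.39 without control replicate 1, where it passed. RAB26 was -0.28 (adjusted p = 0.0674) without control replicate 1, -0.30 (adjusted p = 0.0769) without control replicate 3, -0.29 (adjusted p = 0.0816) without CDKL1 shRNA replicate 1 and -0.30 (adjusted p = 0.0856) without CDKL1 shRNA replicate 3. With the ACTB covariate they were 0.61 (adjusted p = 0.157) and -0.47 (adjusted p = 0.125). The other secretory members ranged from RAB3B (-0.20) and RAB37 (-0.15) to RAB3D (0.08), and RAB27A, the relative of RAB27B, was at -0.06.

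The last group, with the ciliary genes RAB23 and RAB28, the ubiquitin ligase adaptor genes RAB40A, RAB40B and RAB40C, and RAB42, gave 0 calls with limma and 0 at an unadjusted p under 0.05. Its changes lay between -0.09 (RAB28) and 0.06 (RAB40C). RAB28 read 9.77, 9.71 and 9.73 in control arrays and 9.58, 9.63 and 9.71 in CDKL1 shRNA arrays, groups that did not overlap, though the nearest arrays were 9.71 on both sides, and a change of -0.09 (95% interval -0.21 to 0.02).

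**Figure D2:**
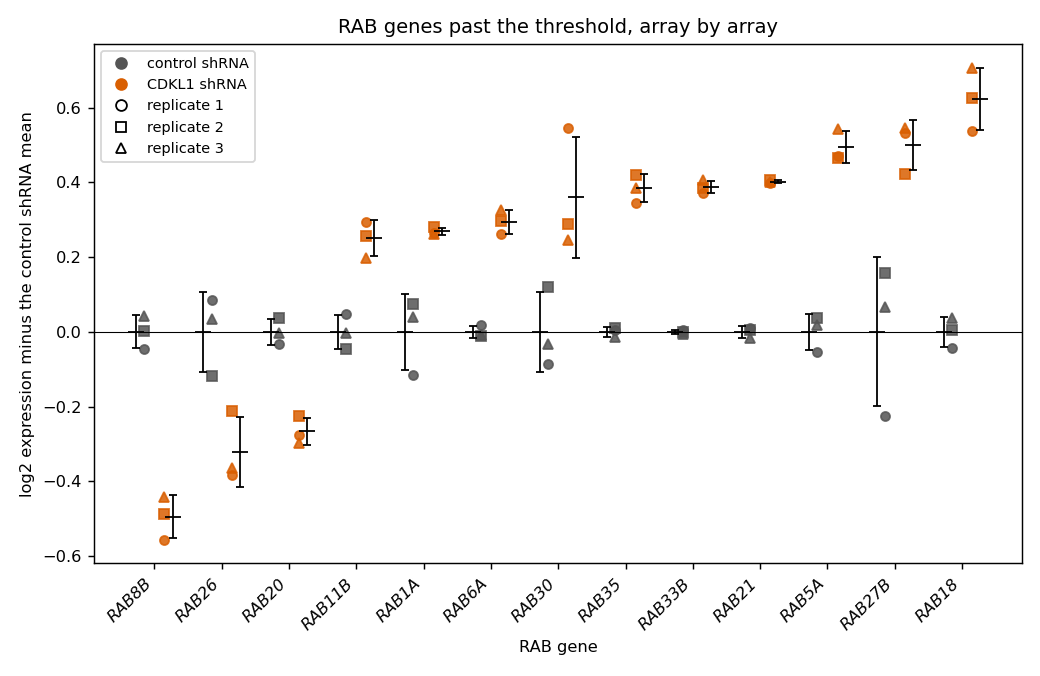
Log2 expression of the 13 called RAB genes in each of the 6 arrays, drawn relative to the control shRNA mean of that gene (y axis); symbols mark the replicate number, and the black bars beside them give the mean ± SD of 3 arrays. No control array of any of these genes reaches the range of its CDKL1 shRNA arrays, and the spread is widest for RAB30 and RAB27B.

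The probe sets of a gene can bind different parts of its transcripts, and they did not always move alike. Over all 161 probe sets 34 were higher and 7 lower at an adjusted p of 0.05 (limma, adjusted over 49293 probe sets). That was 25.5% against 12.6% of all probe sets, of which 7.38% were higher and 5.24% lower. Probe sets of the same gene are not separate members, and RAB18 alone gave 9 of the 34. RAB5A and RAB6A gave 4 each and RAB1A 3. Counted by gene, 22.8% were called against 16.8% of all genes. Without 1 array 18 to 26 were higher and 3 to 6 lower, while the share of all probe sets called was 6.11% to 9.29%. The lowest counts, 18 and 3, were those without CDKL1 shRNA replicate 3. Without CDKL1 shRNA replicate 1 the counts were 20 and 5, without CDKL1 shRNA replicate 2 they were 22 and 5, without control replicate 2 they were 24 and 4, and without control replicate 3 they were 23 and 4. No RAB gene had called probe sets in both directions.

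Agreement was closest for RAB18, RAB5A, RAB21 and RAB1A. All 10 probe sets of RAB18 were positive, from 0.06 to 0.71, and 9 of them passed. All 4 of RAB5A passed, at 0.49 to 0.60, as did both of RAB21, at 0.40 and 0.41. RAB1A had 4 positive probe sets with 3 called, and RAB6A had 8 positive with 4 called, up to 0.63. RAB33B and RAB30 each passed in 1 of 2 probe sets. The other, dimmer one gave 0.22 for RAB33B (adjusted p = 0.186) and 0.13 for RAB30 (adjusted p = 0.277) in limma, with overlapping groups. RAB8B fell in 2 of its 4 probe sets, by 0.50 and 0.53, and the other two, which were dimmer, gave -0.14 and -0.02. In contrast, 1 of 7 probe sets of RAB11B passed and 4 were negative, and 1 of 5 of RAB35 passed and 3 were negative, where the negative ones were dimmer, with group means between 4.04 and 6.73.

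For 7 genes that did not pass by the brightest probe set another one was called. RAB13, which serves tight junction traffic, had 2 called falls. The stronger of them read 10.23, 10.56 and 10.45 in control arrays and 10.09, 9.92 and 9.99 in CDKL1 shRNA arrays (change -0.42, adjusted p = 0.0256, limma), and the other gave -0.27 (adjusted p = 0.0315). Its brightest probe set, at 12.1 in both groups, gave -0.09. RAB22A, an endosomal GTPase, fell by 0.53 in a second probe set, which read 8.19, 8.18 and 8.16 in control arrays and 7.61, 7.72 and 7.60 in CDKL1 shRNA arrays (adjusted p = 0.00143, limma). RAB2A rose in 3 of its 4 probe sets, by 0.18 to 0.37, and RAB2B by 0.37 in a probe set with levels of 4.08 to 4.63, under the background control. RAB6B (0.70), RAB14 (0.25) and RAB7A (0.21) each rose in 1 probe set, and that of RAB6B was near background, with control arrays at 4.85 to 5.49. For RAB14, a Golgi-to-endosome GTPase, the brightest probe set gave -0.12, so that its probe sets differed in sign.

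**Figure D3:**
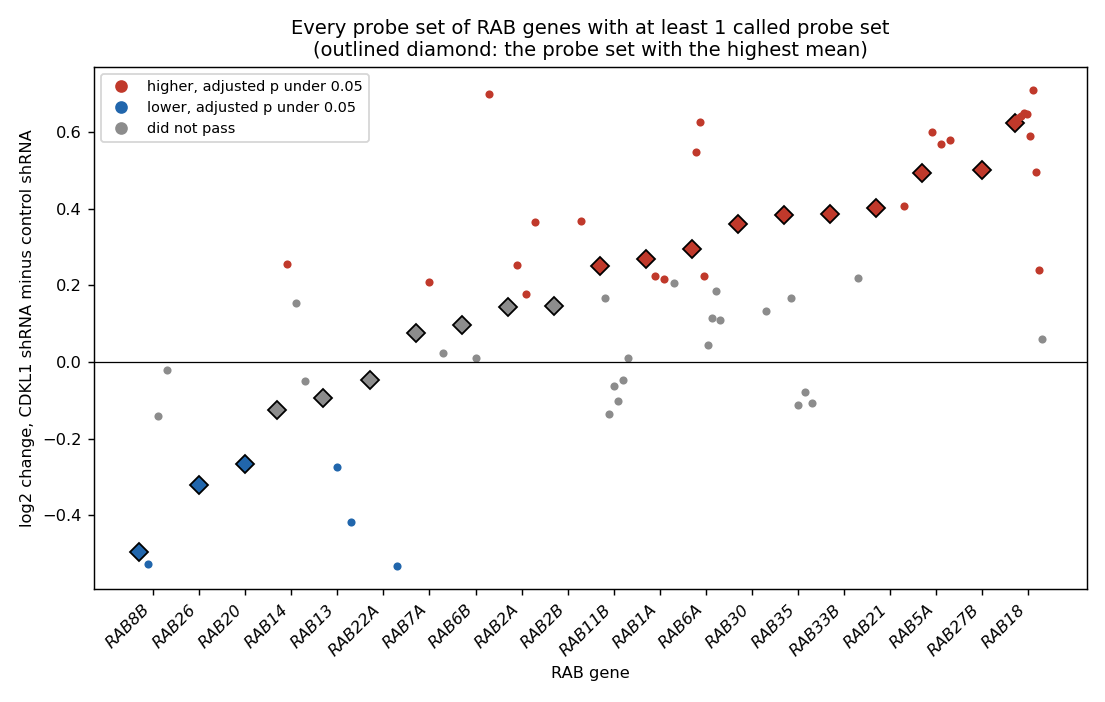
Log2 change (y axis) of every probe set of the 20 RAB genes that had at least 1 called probe set, ordered by the change of the brightest one (outlined diamond). Colours give the call adjusted over all probe sets; RAB18 and RAB5A cluster high, whereas RAB11B and RAB35 scatter about 0 below their diamonds and RAB22A and RAB6B each have a called point far from the diamond.

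Relatives that share a number were compared within arrays, as the difference of their log2 values. Of 23 pairs, some of which share a member, 8 had no overlap between groups. The 35.7% of all genes without overlap is for levels of single genes, and no matching share for differences between genes was computed. All 8 were at 0.1 in the two-sided exact permutation test, the smallest p possible with 3 arrays against 3 (adjusted p = 0.288 over the 23 pairs by Benjamini-Hochberg). None could therefore pass. The largest differences of change were those of RAB27A minus RAB27B (-0.56), RAB8A minus RAB8B (0.55), RAB33A minus RAB33B (-0.52) and RAB5A minus RAB5C (0.52). RAB8A itself read 10.78, 10.79 and 10.84 in control arrays and 10.86, 10.86 and 10.85 in CDKL1 shRNA arrays, a change of 0.06 with a 95% interval of -0.04 to 0.15. RAB33A and RAB6D, each a member of 1 of the 8 pairs, lay under the background control, so their differences from RAB33B and RAB6A say little about these genes. RAB2A and RAB2B differed by -0.01, with overlapping groups (exact permutation p = 1).

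Genes that load, switch and read RAB proteins were counted from lists of 179 names, of which 169 were measured. Over the 4 lists 21 rose and 14 fell, 20.7% against 16.8% of all genes. Among the genes of prenylation and membrane cycling 3 of 6 rose and 0 fell (50%), with a median of 0.14. RABAC1, the prenylated RAB acceptor, rose from 10.33 ± 0.0667 to 10.93 ± 0.00481 (SD, n = 3; change 0.61, adjusted p = 0.000448, limma). CHML, a RAB escort protein that presents RABs for prenylation, rose by 0.30 (adjusted p = 0.00448, limma). The GDP dissociation inhibitor gene GDI2 rose by 0.17 (adjusted p = 0.0269, limma), and this call was lost without any 1 of the 6 arrays (adjusted p = 0.0575 to 0.0932, change 0.16 to 0.18), which left 2 of the 6 genes.

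Exchange factor genes were called at the rate of genes in general: 5 of 50 rose and 3 fell (16% against 16.8%), with a median of 0.00. RIC1, a subunit of the RAB6 exchange factor, rose by 0.42 (SE 0.0423, adjusted p = 0.00108, limma), and SMCR8, a partner of C9orf72, by 0.41 (adjusted p = 0.00144; 0.25 over the mean of its probe sets). The TRAPP complex subunit genes TRAPPC6B (-0.40, adjusted p = 0.00624) and TRAPPC6A (-0.20, adjusted p = 0.0143) fell. TRAPPC6B gave -0.05 over the mean of its probe sets, and TRAPPC6A did not pass without control replicate 2 (-0.19, adjusted p = 0.0588) or 3 (-0.21, adjusted p = 0.0503). Leaving out CDKL1 shRNA replicate 3 gave -0.20 (adjusted p = 0.0572).

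GTPase-activating protein genes split evenly, 5 of 42 higher and 5 lower (23.8% called against 16.8% of all genes), with a median of -0.05. TBC1D23, a TBC protein that links golgins to endosome-derived vesicles, rose from 8.62 ± 0.0685 to 9.42 ± 0.0462 (SD, n = 3; 1.74-fold, adjusted p = 0.000242, limma). GRTP1 fell by 0.64 (adjusted p = 0.00166) and TBC1D22A by 0.36 (adjusted p = 0.00426; -0.22 over the mean of its probe sets), whereas TBC1D15, which acts on RAB7, rose by 0.32 (adjusted p = 0.00651). Of the 71 effector genes 8 rose and 6 fell (19.7%), with a median of 0.03. The 4 with the smallest p were RILPL2 (0.40), SYTL2 (0.41), a tether of RAB27 vesicles, the Golgi stacking gene GORASP2 (0.36) and the RAB11 effector gene RAB11FIP5 (0.38), with adjusted p from 0.00223 to 0.00374 (limma). APPL2, which binds RAB5 on signalling endosomes, had the largest fall of the 4 lists, -0.88 (adjusted p = 0.00651). APPL2 was chosen after its values were seen.

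The counts of exchange factors and activating proteins moved when single arrays were dropped. Without control replicate 1 the counts higher and lower were 5 and 3 for exchange factors, as with all arrays, and 4 and 4 for activating proteins. Without CDKL1 shRNA replicate 1 they were 2 and 2 for exchange factors and 3 and 2 for activating proteins, and without CDKL1 shRNA replicate 2 they were 2 and 2 for both. Without CDKL1 shRNA replicate 3 they were 3 and 1 for exchange factors and 2 and 3 for activating proteins. Without control replicate 2 they were 2 and 1, and 2 and 2, and without control replicate 3 they were 3 and 1, and 3 and 2. Effectors gave 6 to 8 higher and 4 to 6 lower over these 6 fits. With the ACTB covariate RABAC1 (0.60, adjusted p = 0.0445) and TBC1D23 (0.77, adjusted p = 0.0304) were the only called genes of the 4 lists in limma. The other genes with the smallest p named above then had an adjusted p of 0.0531 (GRTP1) to 0.28 (GDI2).

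**Figure D4:**
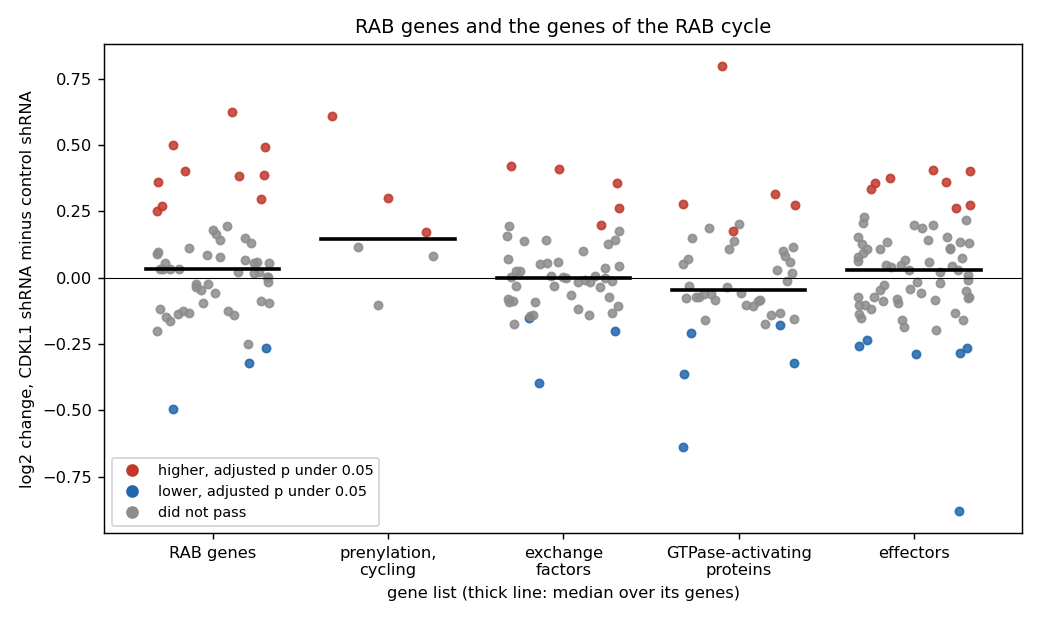
Log2 change (y axis) of the 57 RAB genes and of the 169 measured genes of the RAB cycle, each point 1 gene read from 3 arrays per group and coloured by its call, with thick lines at the list medians. TBC1D23 is the highest point, the effector gene APPL2 the lowest at -0.88, and the medians of the RAB, exchange factor, activating protein and effector lists lie between -0.05 and 0.03.

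Across settings the direction of the 13 called RAB genes was the same in every fit that tested them, but not every call was. For most fits that direction was fixed beforehand. The groups of these genes did not overlap, so leaving out an array could not reverse it. The replicate block, the intensity trend and the filters on dim genes do not alter the estimate. With 1 array left out 9 to 12 of the 13 passed, and no other RAB gene did. With the ACTB covariate none of the 13 passed in limma: the changes ran from -0.52 (RAB8B) to 0.61 (RAB27B), the adjusted p from 0.0597 to 0.284, and 219 genes in all were called. When the probe sets of each gene were averaged, 11 of the 13 passed and RAB2A, RAB2B, RAB6B, RAB13 and RAB22A joined them.

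**Figure D5:**
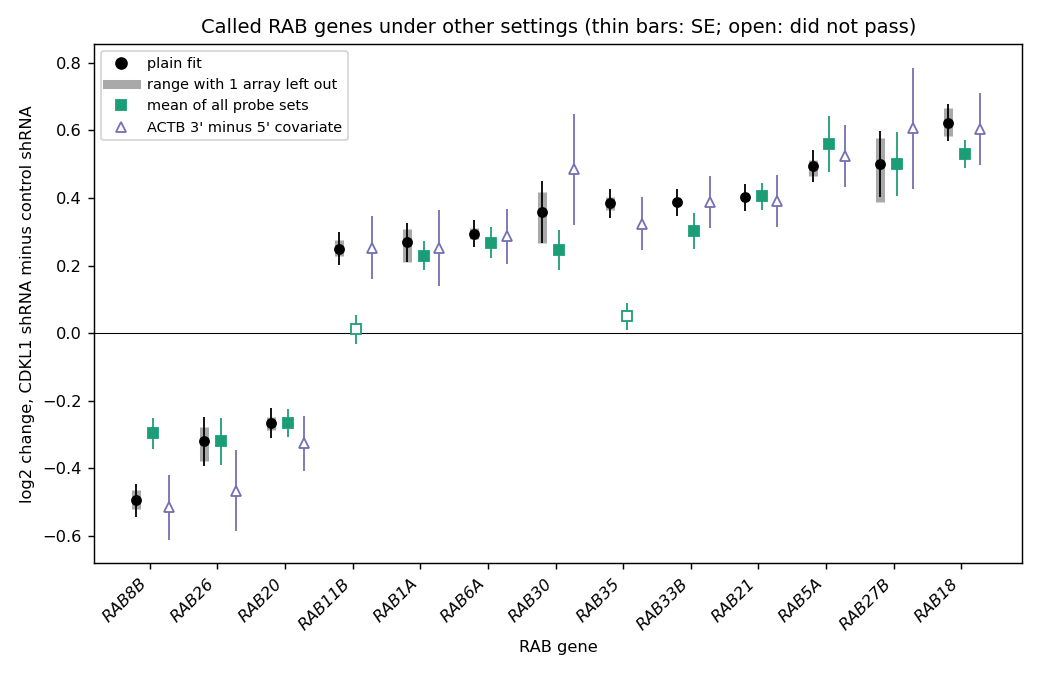
Log2 change (y axis) of the 13 called RAB genes in the plain fit, over fits with 1 array left out (grey band), with all probe sets of a gene averaged and with the actin gap between 3' and 5' probe sets as a covariate; thin bars are SEs and open symbols did not pass an adjusted p of 0.05. With the covariate all 13 symbols are open and the errors wider, with RAB26 moving from -0.32 to -0.47 and RAB30 from 0.36 to 0.49, and averaging brings RAB11B and RAB35 to 0.01 and 0.05.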

How the data were processed

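Biotin-labelled cRNA from total RNA of DLD1 cells was hybridised to Affymetrix arrays, per the labels' protocols. The deposited values are log2 expression per probe set, made by the authors with RMA per the submitters' processing notes (version not given in the sources used here). The method corrects background, quantile-normalises between arrays and can compress changes of dim probe sets. Probe sets were named through the platform annotation: 44988 had 1 symbol, 1832 several and 2473 none, and 102 control probe sets were left out. All 57 RAB symbols matched RefSeq (GRCh38.p14). 0 columns were left unused.

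The members and lists were chosen with earlier results of these data known. One linear model with group as its term was fitted to all 18132 genes, each by its probe set with the highest mean, with limma 3.58.1 in R 4.3.3 (lmFit, eBayes, two-sided), and p was adjusted by Benjamini-Hochberg with a threshold of 0.05. No filter on dim genes was used. Probe sets were fitted separately. The number of arrays limits precision. The code was tested on simulated data. Every called RAB gene was named and given array by array, with the brightest member of a role group without calls and up to 4 called genes with the smallest adjusted p per pathway list; further genes named were chosen after their values were seen. Protein features planned beforehand were not computed. Alternatives were a replicate block, leaving out each array, further quantile normalisation, median subtraction, the mean of probe sets, a filter on dim genes, an intensity trend and an ACTB covariate. A milder filter, and the covariate without CDKL1 shRNA replicate 2, were added after seeing the data. Python 3.11.15 and matplotlib 3.10.9 drew the figures.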

Additional observations from a re-analysis of the deposited data

How the results depend on the processing

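The replicate numbers did not pair the samples: deviations of same-numbered arrays from their group means, over all genes, correlated at -0.03, -0.12 and 0.07, and none of the labels says what a number stands for. With a replicate block 9 RAB genes were higher and 3 lower, 11 of the 13 called genes were kept (RAB26 and RAB30 were lost, RAB9B was added), and 1024 of all genes were higher and 779 lower. With 1 array left out 7 to 9 RAB genes were higher and 2 to 3 lower, and 895 to 1314 of all genes were higher and 738 to 1085 lower, with fewer arrays in each fit. The RAB median ran from 0.0124 to 0.055 in these fits. With the ACTB covariate 0 RAB genes were higher and 0 lower, and 109 of all genes were higher and 110 lower. In that fit 18 RAB genes and 3501 of all 18132 genes had an unadjusted p under 0.05 (limma). Without CDKL1 shRNA replicate 2 as well, a fit with 2 residual degrees of freedom, 0 and 0 of the RAB genes and 0 and 0 of all genes were called by limma (2 RAB genes and 658 of all genes at an unadjusted p under 0.05), and the RAB median was 0.11. A filter to genes brighter than the highest background control kept 1811 genes and 11 RAB genes. There 5 RAB genes were higher and 2 lower, with a median of 0.13. They were RAB1A, RAB5A and RAB11B, the only 3 of the 13 called genes tested, and RAB2A, RAB4A, RAB10 and RAB14. Of all genes kept 534 were higher and 409 lower, 52.1% called. The counts were smaller because fewer genes were tested. With an intensity trend 14 RAB genes were higher and 5 lower (2310 and 1883 of all genes), and with the mean of all probe sets 11 were higher and 5 lower (1624 and 1324 of all genes); the cause was not tested. Further quantile normalisation, median subtraction and the milder filter kept all 13 calls, and the first added RAB4A and the last RAB9B. Each called RAB gene kept its direction in every setting that tested it, though most of these settings could not have reversed it. Signal over background limits RAB33A, RAB39A, RAB3C, RAB40A, RAB41 and RAB6D, whose means lay under the background control with 16 G or C bases.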
